A study of Homo sapiens with 28 samples.

Results

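SHI1 is an established acute myeloid leukaemia (AML) cell line that carries a KMT2A fusion, and the data described here are its response to GSK3484862, an inhibitor of the DNA methyltransferase DNMT1. The SHI1 arrays, 4 of the 28 in the series, were found by the line's name in the sample titles. Of these, 2 hold RNA of cells kept in 1 µM GSK3484862 for 96 hours (4 days), and 2 hold RNA of cells kept as long in 0.1% DMSO, the solvent of the inhibitor. The series design calls each pair biological duplicates. The other 6 AML lines, SKM1, MOLM13, GDM1, THP1, NOMO1 and SKNO1, had the same treatments, dose, time and number of arrays, and serve here as context. Transcripts were measured on Affymetrix U133 Plus 2.0 arrays.

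DNMT1 copies DNA methylation from the old strand to the new one after replication, so a cell that divides without it loses methylation with each division. Methylation of CpG sites in promoters keeps many germline, tissue-restricted and some tumour suppressor genes silent. Inhibitors of DNA methyltransferases are known to switch on such genes, and in many cancer cells also interferon-stimulated genes, after repeated elements are transcribed and sensed as viral RNA.

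Values are log2 signals as deposited, with a lowest value of 2.131 that all arrays share and at which values have no order. One probe set per gene, the one with the highest mean over all 28 arrays, gave 11676 genes. Changes are log2 GSK3484862 minus DMSO ± the standard error of the limma fit (n = 2 arrays each), and calls required an adjusted p under 0.05. The SHI1 arrays had medians of 8.36 to 8.47, and 497 to 552 probe sets lay at the floor on each. Across genes the duplicates correlated at r = 0.997 with GSK3484862 and r = 0.9976 with DMSO, and the SD of a single array was 0.178 and 0.161. The labelled cell type was checked against markers. The leukocyte genes PTPRC and LAPTM5 stood at 12.80 or more on all 4 arrays, and the myeloid genes CEBPA and MPO at 12.39 or more. Other myeloid genes stood lower, LYZ at 11.94 to 12.23, CSF3R at 10.24 to 10.51 and SPI1 at 9.86 to 10.48. Of the monocytic genes, FCN1, ITGAM, CD4 and CD14 stood at 8.88 or more, but CSF1R at 5.60 to 6.06 and IRF8 at 3.58 to 6.62. Of the markers of other cell types, CD79A stood at 5.08 to 5.19, KRT8 at 5.00 to 5.19 and ITGA2B at 4.09 to 5.38. CD3D stood at 6.15 to 7.55, the cytotoxic granule gene NKG7 at 12.37 to 12.67 and the collagen gene COL1A1 at 9.16 to 9.48. None of these passed the test in SHI1 except LAPTM5, SPI1 and IRF8. CD33, CD68 and most erythroid, epithelial and stromal markers were not analysed here.

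More genes were higher than lower with GSK3484862 in SHI1. In all 399 genes changed (3.42% of those tested), of which 294 rose (2.52%) and 105 fell (0.899%), and 110 of the rises and 31 of the falls were at least 2-fold. The median change was 0.79 among the genes that rose and -0.73 among those that fell, against 0.004 over all genes. Their starting levels were low, with a median in DMSO of 7.82 for genes that rose and 7.44 for genes that fell, against 9.59 over all genes. The treated arrays lay on one side of the DMSO arrays for all 399 called genes, and for 52.9% of all genes tested. Without GSK3484862 replicate 1 the count of rises was 140, and without DMSO replicate 1 or 2 it was 177 or 147. The count of falls was 59 without GSK3484862 replicate 2, and 51 or 49 without DMSO replicate 1 or 2. With no other line in the fit, the 4 SHI1 arrays called 0 genes, with 2656 at an unadjusted p under 0.05, against 1635 in the fit over all lines.

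**Figure D1:**
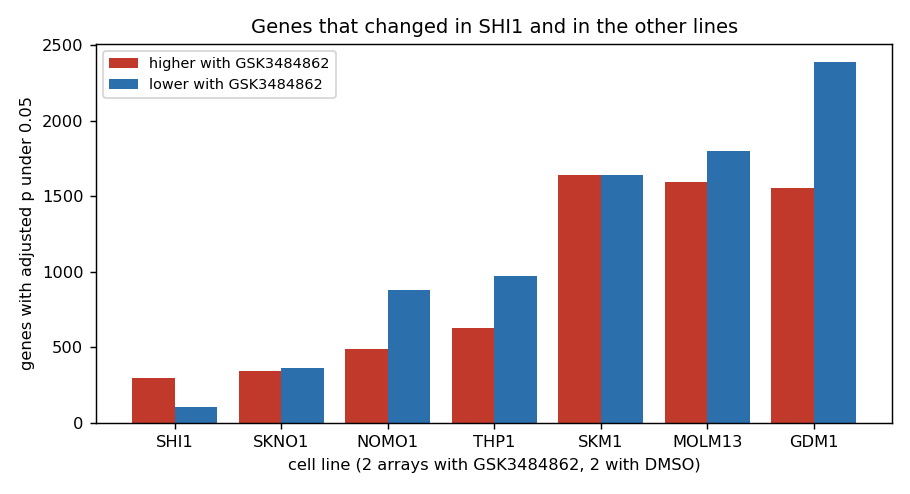
Number of genes with an adjusted p under 0.05 (vertical axis) that were higher (red) or lower (blue) with GSK3484862, in SHI1 at the left and in the other 6 lines. SHI1 had 294 and 105, the fewest in each direction of the 7 lines in this fit, and 399 in all against 710 to 3940 in the other lines.

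SHI1 had the fewest called genes of the 7 lines in this fit, 399 against 710 in SKNO1, 1373 in NOMO1, 1599 in THP1, 3283 in SKM1, 3394 in MOLM13 and 3940 in GDM1. The spread of the changes over all genes was also lowest, with an SD of 0.325 in SHI1 and 0.384 to 0.647 in the other lines. Rises made up 73.7% of the calls in SHI1. Most rises were shared with another line, 72 with 1 and 174 with 2 or more, while 48 were called in no other line. SKM1 shared the most, 164 genes, which were 55.8% of the SHI1 rises and 9.98% of the SKM1 rises. It also had the most rises of the lines, 1643. As a share of the line's own rises, SKNO1 (15.9%), NOMO1 (15.3%) and THP1 (11.1%) stood above SKM1. MMP9 and NFE4 rose in SHI1 and in all 6 other lines. Among the falls, 70 were shared with at least 1 other line and 35 with none. Line by line, SHI1 rises made up 7.47% (GDM1) to 15.9% (SKNO1) of the other line's rises, against 2.52% of all genes tested. SHI1 falls made up 1.26% (GDM1) to 4.67% (SKNO1) of the other line's falls, against 0.899% of all genes. The share of all genes called in at least 1 other line was not computed. The counts shared with any line thus have no background to be set against.

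A separate test compared the change in SHI1 with the mean change of the other 6 lines. The SHI1 change was higher for 308 genes (2.64%) and lower for 197 (1.69%), a split of 61% higher. That split depended on the scaling, with 206 higher and 258 lower (44.4% higher) after each array was centred on its median, and 221 and 237 (48.3%) after quantile normalization. Of the 48 rises called in no other line, 38 were above the other lines by this test, and of the 35 such falls 27 were below. Both sets were picked by calls from the same fit and arrays, so these shares are largely set by that choice. The counts fell without any single SHI1 array, to 100 and 149 higher without GSK3484862 replicate 1 and 2, and to 155 and 96 without DMSO replicate 1 and 2. The corresponding counts lower were 116, 94, 99 and 81. Without the SKM1 arrays, which had the widest duplicate spread, they were 565 and 302.

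The promoters of 4 genes among the largest rises are shown first, since DNMT1 acts on CpG sites. They were picked after the values were seen, to cover the range of CpG content. Each is the 250 bases before the annotated start on the gene's own strand, from RefSeq on GRCh38.p14, with each CpG in capitals.
MAGEB2 (chrX:30215313-30215562, + strand): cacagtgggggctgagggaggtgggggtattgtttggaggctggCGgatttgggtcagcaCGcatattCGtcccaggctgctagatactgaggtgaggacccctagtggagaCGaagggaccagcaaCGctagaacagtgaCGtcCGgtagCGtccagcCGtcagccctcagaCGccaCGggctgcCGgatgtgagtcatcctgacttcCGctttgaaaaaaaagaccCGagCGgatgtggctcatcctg
MLPH (chr2:237487001-237487250, + strand): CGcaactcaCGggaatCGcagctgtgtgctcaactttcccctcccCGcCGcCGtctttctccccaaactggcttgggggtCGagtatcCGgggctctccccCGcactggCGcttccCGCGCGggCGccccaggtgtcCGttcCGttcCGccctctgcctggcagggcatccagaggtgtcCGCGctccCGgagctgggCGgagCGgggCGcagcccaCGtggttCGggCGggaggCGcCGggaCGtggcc
IL32 (chr16:3065153-3065402, + strand): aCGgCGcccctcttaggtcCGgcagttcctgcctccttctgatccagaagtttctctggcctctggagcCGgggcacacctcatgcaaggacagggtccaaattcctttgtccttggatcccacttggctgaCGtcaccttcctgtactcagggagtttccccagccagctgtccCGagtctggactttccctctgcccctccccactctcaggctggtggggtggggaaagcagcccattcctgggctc
PRG3 (chr11:57381151-57381400, - strand): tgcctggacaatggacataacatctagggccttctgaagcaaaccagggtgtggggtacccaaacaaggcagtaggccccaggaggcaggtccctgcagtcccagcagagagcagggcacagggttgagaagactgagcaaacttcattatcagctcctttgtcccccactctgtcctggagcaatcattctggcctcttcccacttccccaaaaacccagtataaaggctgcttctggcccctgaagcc
MLPH held 29 CpG sites in this window, MAGEB2 15, IL32 6 and PRG3 0. Methylation was not measured in these arrays, so the sequences describe the genes and not their methylation. In the window of 300 bases that includes the first 50 of the transcript, 27.1% of the genes that rose (61 of 225 with a promoter in the table) had fewer than 10 CpG sites, against 10.8% of the genes that fell and 12.1% of all genes tested. Dim genes more often have few CpG sites. Among genes below the median level the share was 31.6% of those that rose and 17.6% of all, and above it 17.8% and 6.97%. The median was 24 CpG sites among genes that rose, 27 among genes that fell and 26 over all genes.

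Several of the largest rises were of genes that lay near the floor in DMSO. ZNF595, a zinc finger gene, had log2 levels of 9.00 and 7.80 with GSK3484862, against 2.27 and 2.33 with DMSO. Both treated arrays were far above both control arrays, a change of 6.11 ± 0.28 (68.9-fold, adjusted p = 4.73e-10). MAGEB2, a cancer-testis antigen of the X-linked MAGE family, had levels of 8.77 and 8.27 with GSK3484862, against 3.47 and 3.46 with DMSO. It rose by 5.05 ± 0.21 (33.1-fold, adjusted p = 1.05e-10), and its promoter is the first of those printed above. Both genes also rose in 5 of the other 6 lines, and GDM1 was the exception for both, at -0.01 and 0.37.

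NAV3, which encodes a microtubule-associated protein of neurons, reached 6.37 and 6.98 with GSK3484862, against 2.83 and 2.41 with DMSO. This change of 4.05 ± 0.21 (adjusted p = 1.66e-09) did not pass the test of a difference from the mean of the other lines (0.63 ± 0.22, adjusted p = 0.119), among which the change ran from 0.00 in SKNO1 to 7.13 in MOLM13.

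CPXM1, a secreted protein of the carboxypeptidase family, had levels of 8.13 and 7.92 with GSK3484862, against 3.43 and 3.13 with DMSO. The change was 4.75 ± 0.17 (adjusted p = 1.29e-11). SKM1 moved by a like amount (4.69), SKNO1 by 2.41, and the remaining 4 lines by -0.01 to 0.54. GAS2L1, a linker of actin and microtubules, stood at 7.19 and 6.87 with GSK3484862, against 2.69 and 3.10 with DMSO. Its rise of 4.13 ± 0.23 (adjusted p = 4.57e-09) brought SHI1 to the range in which the other lines stood before treatment, 6.66 to 8.43.

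MLPH, which couples Rab27a vesicles to myosin, was at 10.97 and 10.79 with GSK3484862, against 7.05 and 6.93 with DMSO. It rose by 3.88 ± 0.12 (14.8-fold, adjusted p = 2.04e-12), and among the other lines NOMO1 rose by 3.22 while the remaining 5 moved by -0.17 to 0.07. LOXL1, a lysyl oxidase that cross-links elastin, had 7.91 and 7.40 with GSK3484862, against 3.34 and 4.24 with DMSO, a change of 3.87 ± 0.43 (adjusted p = 3.65e-05). SMPD3, the neutral sphingomyelinase of the plasma membrane, had 6.34 and 5.71 with GSK3484862, against 2.13 and 2.82 with DMSO, where 1 array was at the floor. Its change of 3.55 ± 0.20 (adjusted p = 4.75e-09) compared with 0.00 to 0.59 in the other 6 lines.

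IL32, a cytokine that induces TNF and other inflammatory mediators, was at 6.76 and 5.43 with GSK3484862, against the floor on both DMSO arrays. Its rise was therefore at least 15.6-fold (adjusted p = 1.27e-07), and among the other lines it rose in SKM1 (4.91) and MOLM13 (2.69). PRG3, GGTA1, STAB1 and SYNE2 were the other genes that rose with both DMSO arrays at the floor. ZG16B, a secreted lectin-like protein, stood at 6.11 and 5.62 with GSK3484862, against 2.70 and 2.74 with DMSO. It rose by 3.15 ± 0.23 (adjusted p = 2.43e-07) in SHI1, whereas in SKNO1 it fell by 2.05.

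Of the remaining large rises, SPINT2, an inhibitor of membrane serine proteases, had 7.69 and 7.20 with GSK3484862, against 4.36 and 4.36 with DMSO. Its rise of 3.09 ± 0.28 (adjusted p = 4.01e-06) took it to the lower end of the levels of the other lines in DMSO, 7.16 to 12.81. The collagen gene COL21A1 rose by 3.43 ± 0.44, the kinesin motor gene KIF17 by 3.03 ± 0.18 and the potassium channel gene KCNH2 by 2.99 ± 0.37. With 1 SHI1 array left out, the smallest rise among the 16 largest was 2.43, that of PRG3. The 16 were chosen among called genes whose groups did not overlap.

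**Figure D2:**
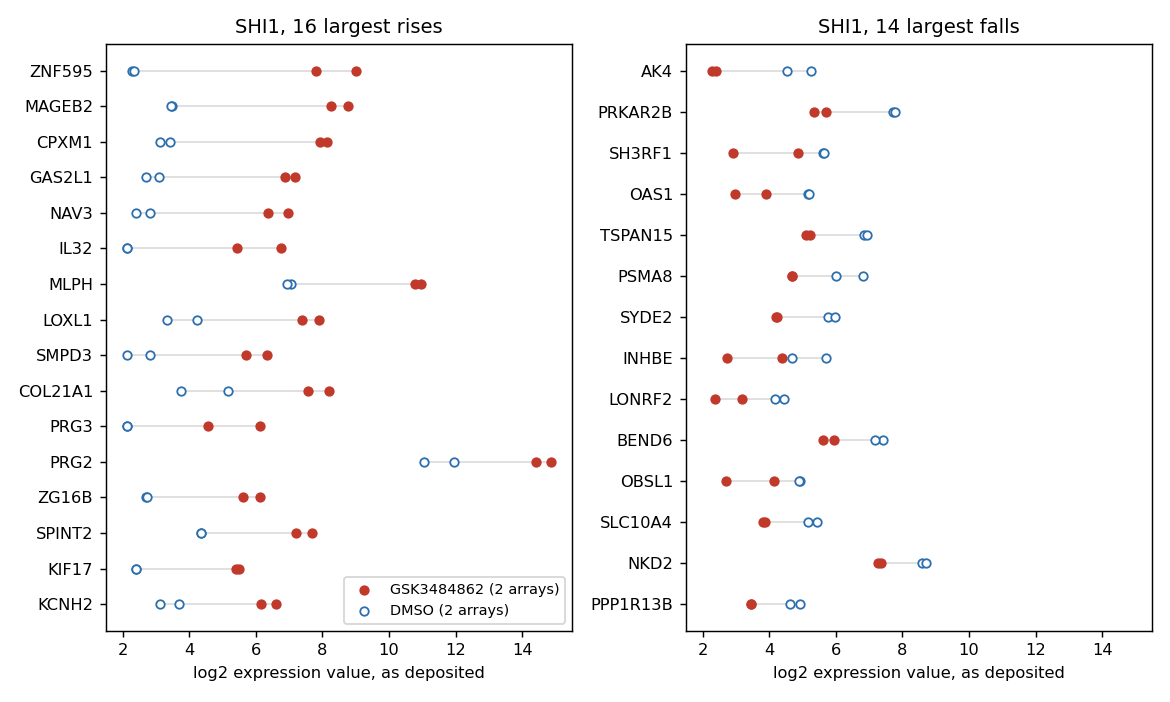
Log2 expression values (horizontal axes) of the 16 largest rises (left) and 14 largest falls (right) in SHI1, with the 2 GSK3484862 arrays as red points and the 2 DMSO arrays as open blue points. The treated arrays of each gene lie on one side of its DMSO arrays, as the choice of these genes required. PRG2 is the gene among the rises with the highest level, 14.87 and 14.42 with GSK3484862.

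The genes that fell most had low to middling levels, and their changes were smaller than the rises. AK4, a mitochondrial adenylate kinase, was at 2.27 and 2.39 with GSK3484862, against 4.53 and 5.25 with DMSO. It fell by 2.56 ± 0.35 (adjusted p = 3.32e-04) to near the floor. Another of its 4 probe sets moved by -1.85 (adjusted p = 0.00244). The remaining ones, at 3.64 and 3.65 in DMSO, moved by -0.19 (0.989) and 0.08 (0.972) and did not pass. PRKAR2B, a regulatory subunit of protein kinase A, had 5.35 and 5.71 with GSK3484862, against 7.71 and 7.79 with DMSO. It fell by 2.22 ± 0.18 (adjusted p = 9.38e-07), and the other 6 lines moved by -0.24 to 0.00.

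TSPAN15, a tetraspanin that partners the protease ADAM10, stood at 5.09 and 5.21 with GSK3484862, against 6.85 and 6.93 with DMSO. The fall of 1.74 ± 0.19 (adjusted p = 3.15e-05) differed from the other lines, which moved by -0.04 to 0.67. PSMA8, a proteasome subunit of the testis, had 4.69 and 4.67 with GSK3484862, against 6.82 and 6.01 with DMSO, and fell by 1.74 ± 0.27 (adjusted p = 0.00113). NKD2, an inhibitor of Wnt signalling that binds Dishevelled, fell by 1.32 ± 0.20, LONRF2, a RING finger gene, by 1.54 ± 0.17, and PPP1R13B, which encodes the p53-binding protein ASPP1, by 1.31 ± 0.24.

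The call of PPP1R13B was lost without DMSO replicate 1 (adjusted p = 0.0627). The falls of SH3RF1 and INHBE depended on single arrays, and that of OBSL1 on the probe set used. SH3RF1, a scaffold of the JNK pathway, had 4.86 and 2.90 with GSK3484862, against 5.63 and 5.64 with DMSO, so that the 2 treated arrays lay far apart. It fell by 1.76 ± 0.41, but by 0.78 (adjusted p = 0.214) without GSK3484862 replicate 2. Its call was also lost without DMSO replicate 1 (0.113) or 2 (0.13), and its second probe set lay at the floor. INHBE, an inhibin subunit, moved by -1.12 (adjusted p = 0.393) without DMSO replicate 1 and by -0.80 (0.428) without GSK3484862 replicate 2. BEND6, SYDE2 and SLC10A4 changed little in size with 1 SHI1 array left out, at -1.34 to -1.67, -1.56 to -1.78 and -1.33 to -1.59. Their calls were lost in each of those fits, in which 1 group holds a single array. OBSL1 fell by 1.50 ± 0.28, but 2 of its 3 probe sets did not fall, and the mean of the 3 moved by -0.45 (adjusted p = 0.349). Of those 2, 1 lay near the floor, at 2.16 with GSK3484862 and 2.14 with DMSO, and could not have shown a fall. The other had 4.61 and 4.49.

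Among the genes called both in SHI1 and in the test against the other lines, those in which SHI1 stood farthest from the other lines were LOXL1, CPXM1, SMPD3, MLPH, ZG16B and GAS2L1 on the higher side, by 3.59 ± 0.46 to 2.99 ± 0.24. On the lower side were OAS1, NFE4, PRKAR2B, TSPAN15, SH3RF1 and MEIOC, by -2.74 ± 0.28 to -1.69 ± 0.27. OAS1 encodes an oligoadenylate synthetase that is induced by interferon and activates RNase L. It had 2.98 and 3.90 with GSK3484862, against 5.17 and 5.20 with DMSO, and fell by 1.75 ± 0.26 (adjusted p = 8.08e-04). In THP1 it rose by 3.74 and in GDM1 by 2.54. MOLM13, SKM1, SKNO1 and NOMO1 moved by only -0.17 to 0.00, from DMSO levels of 2.50 to 2.79, so the rise was not general. With probe sets prone to cross-hybridise left out, OAS1 was read by another probe set, which moved by -0.37 (adjusted p = 0.68). That probe set averaged 2.14 with GSK3484862 and 2.51 with DMSO, so near the floor that it could not have shown a larger fall. NFE4, a gene of fetal globin control, stood at 10.51 and 10.47 with GSK3484862, against 9.74 and 9.58 with DMSO. It rose by 0.83 ± 0.19 (adjusted p = 0.0196), against 1.34 to 5.85 in the other lines, whose DMSO levels ran from 2.33 to 10.21. The NFE4 call in SHI1 was lost with any single SHI1 array left out (adjusted p = 0.0677 to 0.166). MEIOC, a regulator of meiotic entry, fell by 1.08 ± 0.25 (adjusted p = 0.0209) and rose in 4 other lines. Its fall in SHI1 was also lost in each of those 4 fits (adjusted p = 0.0699 to 0.141), and the mean of its 3 probe sets moved by -0.58 (0.159).

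**Figure D3:**
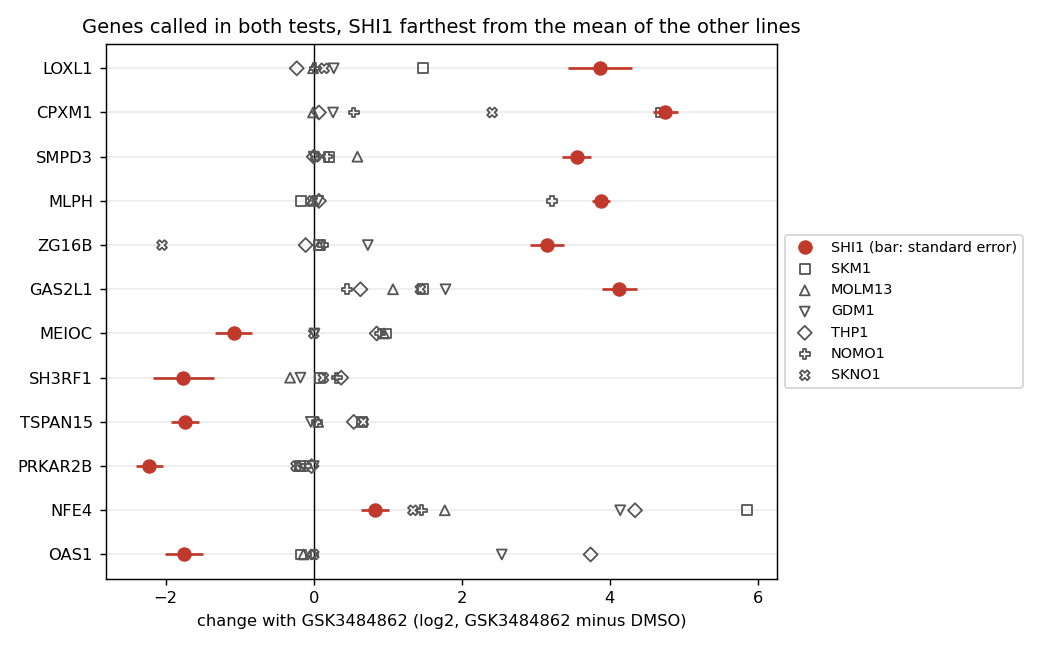
Change with GSK3484862 (log2, horizontal axis) in SHI1 (red points, bars are standard errors) and in each of the other 6 lines (open symbols) for the 12 genes that lay farthest from the other lines among those called in both tests. LOXL1 at 3.87 and SMPD3 at 3.55 lie right of every other line, and OAS1 at -1.75 and PRKAR2B at -2.22 lie left of every other line.

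Some genes that other lines raised did not pass the test in SHI1 while differing from those lines. The 10 with the largest difference, chosen after their values were seen, stood at different levels in SHI1. The cancer-testis antigen gene MAGEA4 and the transketolase-like gene TKTL1 lay at the floor on all 4 SHI1 arrays, and the collagen gene COL14A1 at 2.14 or less, against mean changes of 3.70, 2.53 and 3.41 in the other lines. MAGEA4 rose in 4 of those lines, and TKTL1 and COL14A1 in 3 each. MAGEA4 moved by 0.00 in GDM1 and NOMO1, and TKTL1 by 0.00 in GDM1, THP1 and SKNO1. COL14A1 moved by 0.57 in MOLM13, 0.08 in THP1 and 0.01 in NOMO1. GTSF1, which acts in piRNA silencing, was at 12.93 and 12.91 with GSK3484862, against 12.72 and 12.76 with DMSO, and the calcium-binding protein gene S100P at 14.43 and 14.42, against 14.12 and 14.14. Both were high on every SHI1 array, and their mean changes elsewhere were 2.64 and 2.77. The GTSF1 mean came from MOLM13 (8.44) and SKM1 (7.78), while the other 4 lines moved by -0.33 to 0.11, and without the MOLM13 arrays the difference was -1.30 against -2.46 with them. The others were GCNA, at 6.12 to 6.17 on all 4 arrays, PLXDC2, with 4.79 and 3.88 with GSK3484862, against 5.34 and 5.48 with DMSO, and DCAF4L1, LGALS3BP and IFIT1. Without the GDM1 arrays the IFIT1 difference was -1.93 (adjusted p = 0.103). IFIT1 lost its difference in each of the 4 fits without a SHI1 array (adjusted p up to 0.145), and DCAF4L1 (up to 0.139) and LGALS3BP (up to 0.0671) in 3 of them. DCAF4L1 also lost it without the THP1 arrays (0.0505).

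No gene of the methylation machinery itself was called in SHI1, with 0 of 18 measured genes up and 0 down by limma (0 also at the 2-fold limit). The shares over all genes were 2.52% up and 0.899% down, so a count of 0 among so few genes lies near them. The median change was -0.05. In the test against the other lines UHRF2 differed, by 0.30 ± 0.07 (adjusted p = 0.0279). DNMT1, the target of the inhibitor, had 13.74 and 13.63 with GSK3484862, against 13.81 and 13.84 with DMSO (-0.14 ± 0.07, adjusted p = 0.364). DNMT3A and DNMT3B, which set new methylation, changed by 0.06 ± 0.11 and -0.02 ± 0.10, and UHRF1, which brings DNMT1 to replicated DNA, by -0.08 ± 0.08. The transcript of the target is no measure of its inhibition.

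Of 7 cancer-testis antigens measured, 2 rose and 0 fell, with a median change of 0.01, against 2.52% up over all genes. MAGEB2 is given above, and DDX43, a helicase gene, had 7.34 and 7.01 with GSK3484862, against 6.85 and 6.65 with DMSO (0.43 ± 0.09, adjusted p = 0.0127). The DDX43 call was lost without GSK3484862 replicate 1 or DMSO replicate 2 (adjusted p up to 0.225) and with trend and robust eBayes (0.175). PRAME, another antigen of this class, had 9.69 and 9.54 with GSK3484862, against 9.22 and 9.01 with DMSO (adjusted p = 0.0522). Of 8 germ-cell and piRNA genes, 0 passed the test, against 3.42% called over all genes. The largest change was that of PIWIL4, at 0.30 ± 0.22.

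Interferon response genes stayed near their DMSO levels in SHI1 while they rose in several other lines. Of 55 measured genes, 1 rose and 2 fell in SHI1, against 2.52% up and 0.899% down over all genes. The median change was 0.00. In the other lines the number that rose was 23 in SKM1, 15 in MOLM13, 47 in GDM1, 30 in THP1, 5 in NOMO1 and 5 in SKNO1. Over all 11676 genes the numbers that rose in these lines were, in the same order, 1643, 1596, 1552, 630, 491 and 346. The SHI1 change was below the mean of the other lines for 15 of the 55 and above it for 0, against 1.69% below over all genes. The median difference of the list was -0.49.

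The members that differed were at mixed levels in SHI1. ISG15, a ubiquitin-like modifier, had 12.40 and 12.28 with GSK3484862, against 12.13 and 12.17 with DMSO (0.19 ± 0.15), and its difference from the other lines was -1.17 ± 0.17 (adjusted p = 6.26e-04). IFIT2, an inhibitor of viral translation, had 9.24 and 9.18 with GSK3484862, against 9.51 and 9.74 with DMSO, with a difference of -1.51 ± 0.25 (adjusted p = 0.00239). Both were well expressed before treatment. OAS2, RSAD2 and IFI6 differed by -1.93 ± 0.36, -1.81 ± 0.35 and -1.45 ± 0.33, and lost that call in 2, 2 and 3 of the 4 fits without a SHI1 array (adjusted p up to 0.0679, 0.0724 and 0.128). Without the GDM1 arrays RSAD2 and IFI6 also lost it (0.0689 and 0.0822).

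EPSTI1 was the 1 member that rose, with 5.19 and 4.03 with GSK3484862, against 3.01 and 3.05 with DMSO (1.58 ± 0.32, adjusted p = 0.00975). Its call was lost in 3 of the 4 fits without a SHI1 array (adjusted p up to 0.174). HERC5, the ligase of ISG15, fell with OAS1, at 8.93 and 8.72 with GSK3484862, against 9.40 and 9.43 with DMSO (-0.59 ± 0.14, adjusted p = 0.0294), and lost its call in each of those 4 fits (0.0584 to 0.221) and with the replicate block (0.0836). The count of 15 was 6 without the GDM1 arrays, 17 under either scaling and 24 with array weights. It was 11 and 3 without GSK3484862 replicate 1 and 2, and 6 and 4 without DMSO replicate 1 and 2. The median difference stayed between -0.33 and -0.64 over these fits and those without another line.

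Of 17 nucleic acid sensing genes, 0 passed in SHI1, against 3.42% called over all genes, with a median of 0.03. SAMHD1, a dNTP hydrolase that restricts viruses, had 12.53 and 12.57 with GSK3484862, against 12.61 and 12.56 with DMSO, whereas the other lines changed by 1.42 on average (difference -1.46, adjusted p = 8.4e-05). Without the GDM1 arrays that difference was -0.58 (adjusted p = 0.0841). STING1 had 11.70 and 11.71 with GSK3484862, against 11.41 and 11.30 with DMSO (0.35 ± 0.10, adjusted p = 0.0704), but passed as the mean of its probe sets (0.41, adjusted p = 0.0312) and in 3 other alternatives (0.01 to 0.0474).

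Of 50 S-phase genes, 0 were up and 0 down in SHI1, against 2.52% and 0.899% over all genes, with a median change of -0.07. These genes were bright, with a median level in DMSO of 11.67. Among the 2919 brightest genes 1.16% rose and 0.377% fell, so a count of 0 lies near the share for such genes. In the other lines the number that fell was 21 in SKM1, 26 in MOLM13, 47 in GDM1, 18 in THP1, 0 in NOMO1 and 6 in SKNO1. Over all 11676 genes the numbers that fell in these lines were, in the same order, 1640, 1798, 2388, 969, 882 and 364. The SHI1 change lay above the mean of the other lines for 10 of the 50 and below it for 0, against 2.64% above over all genes. GINS2, a part of the replicative helicase, had 11.94 and 11.94 with GSK3484862, against 11.99 and 12.02 with DMSO, and differed from the other lines by 0.44 ± 0.08 (adjusted p = 0.00521). CCNE1, the cyclin of S-phase entry, had 10.12 and 10.07 with GSK3484862, against 9.96 and 10.04 with DMSO, and differed by 0.54 ± 0.09 (adjusted p = 0.00204). The arrays of both treatments were close together for both genes. The count of 10 was 7 after centring or quantile normalization, 4 without the GDM1 arrays, 15 without the NOMO1 or the SKM1 arrays and 23 with array weights. It was 3 and 4 without GSK3484862 replicate 1 and 2, and 6 and 3 without DMSO replicate 1 and 2.

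Of 53 genes of G2 and mitosis, 0 passed in SHI1, against 3.42% called over all genes, with a median of 0.04. Genes of MYC and ribosome biogenesis lay slightly below zero, with 44 of 48 negative and a median of -0.13, against 0.004 over all genes. Of the 48, 0 were up and 3 down, against 2.52% and 0.899% over all genes. POLR3G, a subunit of RNA polymerase III, had 9.31 and 9.31 with GSK3484862, against 10.02 and 10.02 with DMSO (-0.71 ± 0.15, adjusted p = 0.0102). The mean of its 3 probe sets moved by -0.39 (adjusted p = 0.233). Of the 3, 1 moved by 0.06, but near the floor, at 2.61 with GSK3484862 and 2.55 with DMSO, where little fall could show. TSR1 and PUS7, of ribosome maturation and pseudouridylation, fell by 0.26 ± 0.07 and 0.25 ± 0.07. POLR3G (adjusted p = 0.0584 to 0.0748) and PUS7 (0.113 to 0.333) lost their calls with any single SHI1 array left out, and TSR1 in 3 of those 4 fits (up to 0.416). TSR1 also lost it as the mean of its probe sets (0.285), and PUS7 under either scaling (0.064 and 0.0722). Of 48 oxidative phosphorylation subunits and 16 reference genes, 0 passed, against the same 3.42%.

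**Figure D4:**
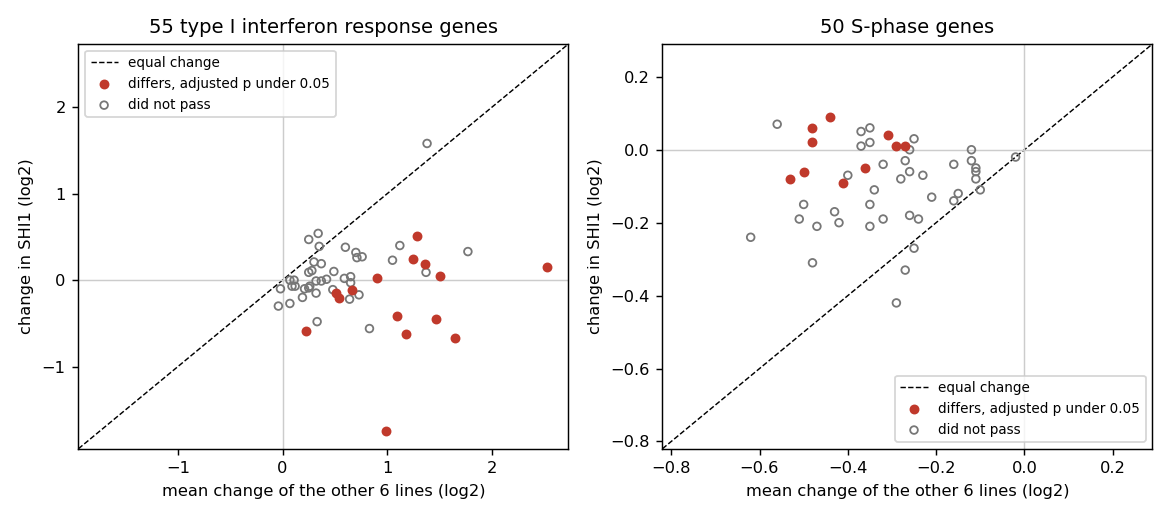
Change in SHI1 (vertical axes, log2) against the mean change of the other 6 lines (horizontal axes, log2) for 55 interferon response genes (left) and 50 S-phase genes (right). Red points differ from the other lines at an adjusted p under 0.05, 15 of them below the dashed line of equal change on the left and 10 above it on the right.

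Genes of eosinophils and basophils, cells that arise late in myeloid differentiation, had 5 of 12 members up, 0 down and a median change of 0.72, against 2.52% up and a median of 0.004 over all genes. PRG2, the major basic protein of eosinophil granules, had 14.87 and 14.42 with GSK3484862, against 11.94 and 11.06 with DMSO (3.15 ± 0.43, adjusted p = 3.10e-04). CLC, the Charcot-Leyden crystal protein, stood at 13.46 or more on both GSK3484862 arrays, against 11.98 and 10.95 with DMSO (2.26 ± 0.32, adjusted p = 4.74e-04). Both were thus raised from a level that was already high. PRG3, a homologue of PRG2, was at 6.13 and 4.56 with GSK3484862, against the floor on both DMSO arrays, a rise of at least 9.29-fold (adjusted p = 9.62e-04).

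HDC, the histamine-forming enzyme, had 4.61 and 3.92 with GSK3484862, against 2.76 and 3.49 with DMSO (1.14 ± 0.26, adjusted p = 0.021), and lost its call without GSK3484862 replicate 1 or DMSO replicate 1 (adjusted p up to 0.301). GATA2, a transcription factor of progenitors and mast cells, had 9.32 and 9.16 with GSK3484862, against 8.64 and 8.52 with DMSO (0.66 ± 0.09, adjusted p = 2.42e-04), while 1 of its 3 probe sets moved by -0.08. Other genes of this list were not raised, such as CPA3, at the floor throughout, and RNASE2, at 14.94 and 14.87 with GSK3484862, against 14.86 and 14.74 with DMSO. The differences of PRG2 and CLC from the other lines did not pass the test (adjusted p = 0.187 and 0.301), but without the MOLM13 arrays that of CLC was 1.42 (adjusted p = 0.0442).

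Of 31 monocyte genes 2 rose and 0 fell, with a median of 0.15, against 2.52% up over all genes. IRF8, a transcription factor of monocyte and dendritic cell fate, had 6.62 and 6.57 with GSK3484862, against 5.23 and 3.58 with DMSO. Its rise of 2.19 ± 0.34 (adjusted p = 0.00116) was above the other lines by 2.04 ± 0.37 (adjusted p = 0.00476). The DMSO arrays lay far apart, and with 1 SHI1 array left out the rise was 1.37 to 3.01 and the difference 1.22 to 2.87, each still called. SERPINA1, the antitrypsin of monocytes, had 12.98 and 12.92 with GSK3484862, against 11.39 and 11.20 with DMSO (1.65 ± 0.23, adjusted p = 3.32e-04). CD14, the monocyte coreceptor of lipopolysaccharide, had 10.27 and 10.46 with GSK3484862, against 9.03 and 8.88 with DMSO, and did not pass the test (1.41 ± 0.42, adjusted p = 0.0802). S100A8, ANPEP, CLEC7A and MNDA lay below the other lines. ANPEP, the surface antigen CD13, was already at 13.47 and 13.34 in DMSO and at 13.56 and 13.56 with GSK3484862 (difference -2.14 ± 0.28, adjusted p = 3.18e-04). The differences of CLEC7A and MNDA were lost with any single SHI1 array left out, at adjusted p up to 0.249 and 0.179, and that of S100A8 in 1 such fit (0.0525). Without the MOLM13 arrays that of S100A8 was -1.52 (adjusted p = 0.0918) and that of MNDA -1.09 (0.0756). Without the GDM1 arrays that of S100A8 was -1.02 and kept its call (0.0268), while that of MNDA was -0.36 (0.231). CLEC7A lost its call without any one of GDM1, MOLM13, THP1 and SKNO1 (up to 0.0733). These are levels in a bulk culture, in which more RNA per cell and more cells of a type cannot be told apart.

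Of 22 neutrophil genes, 3 rose and 0 fell, with a median of 0.17, against 2.52% up over all genes. FPR1, the receptor for formyl peptides, had 6.61 and 6.09 with GSK3484862, against 5.47 and 4.68 with DMSO (1.28 ± 0.25, adjusted p = 0.00728). CYBB, the catalytic subunit of the phagocyte oxidase, had 9.04 and 8.42 with GSK3484862, against 7.43 and 6.79 with DMSO (1.62 ± 0.42, adjusted p = 0.0428). MMP9, the gelatinase of neutrophil granules, had 9.42 and 9.39 with GSK3484862, against 8.53 and 8.48 with DMSO (0.90 ± 0.23, adjusted p = 0.0377). The arrays did not overlap for these genes, as for all called genes. CYBB (adjusted p = 0.0643 to 0.348) and MMP9 (0.132 to 0.194) lost their calls with any single SHI1 array left out, and FPR1 in 2 of those 4 fits (up to 0.139). MMP9 also lost its call under quantile normalization (0.0617).

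Lists of other lineages were short, with 6 to 11 measured genes each. Medians were 0.54 for the platelet list, in which all 6 changes were positive, 0.40 for the epithelial, 0.12 for the lymphocyte and 0.09 for the erythroid list, and 2.52% up over all genes is the share to set their counts against. PRF1, the perforin of cytotoxic lymphocytes, had 9.55 and 9.31 with GSK3484862, against 7.29 and 7.86 with DMSO. It rose by 1.86 ± 0.14 (adjusted p = 4.12e-07), above the other lines by 1.71 ± 0.15 (adjusted p = 5.21e-06), and was the 1 of 10 lymphocyte genes called. PPBP, a platelet chemokine, had 3.70 and 3.28 with GSK3484862, against 2.26 and 2.13 with DMSO, and RAB27B, of platelet granule release, had 5.53 and 4.81, against 4.30 and 4.24. They were the 2 of 6 platelet genes called, with changes of 1.29 ± 0.19 and 0.90 ± 0.23. RAB27B lost its call in 3 of the 4 fits without a SHI1 array (adjusted p up to 0.495) and under quantile normalization (0.0712). NFE4 was the 1 of 6 erythroid genes called, and SPINT2 the 1 of 11 epithelial genes.

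Of 14 stem cell, progenitor and HOX genes, 3 rose and 0 fell, with a median of 0.17, against 2.52% up over all genes. ADGRG1, the adhesion receptor GPR56 of leukaemic stem cells, had 5.03 and 5.29 with GSK3484862, against 3.17 and 3.03 with DMSO (2.06 ± 0.30, adjusted p = 5.52e-04). SPINK2, a protease inhibitor of primitive haematopoietic cells, had 5.03 and 5.27 with GSK3484862, against 3.88 and 4.28 with DMSO. It rose by 1.07 ± 0.14 (adjusted p = 2.74e-04), above the other lines by 1.32 ± 0.15 (adjusted p = 8.61e-05). GATA2 was the third.

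Of 22 MHC class I genes, 4 rose, 0 fell and 21 had a positive change, with a median of 0.17, against 2.52% up over all genes. HLA-E had 13.88 and 13.76 with GSK3484862, against 13.23 and 13.27 with DMSO (0.57 ± 0.09, adjusted p = 0.00102). NLRC5, the transactivator of class I genes, had 9.53 and 9.65 with GSK3484862, against 8.70 and 8.99 with DMSO (0.75 ± 0.19, adjusted p = 0.0377). HLA-C and HLA-G, whose sequences are so alike that probe sets can cross-hybridise, changed by 0.36 ± 0.10 each. NLRC5 (adjusted p = 0.0683 to 0.306), HLA-C (0.192 to 0.216) and HLA-G (0.164 to 0.22) lost their calls with any single SHI1 array left out, NLRC5 also under quantile normalization (0.11), HLA-C under median centring (0.12), and HLA-G under both scalings (0.0718 and 0.0801).

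Among 15 class II genes 2 rose, with a median of 0.07, against the same 2.52%. CD74, the invariant chain, had 5.81 and 5.17 with GSK3484862, against 3.98 and 3.79 with DMSO, far below the 9.80 to 13.29 of the other lines in DMSO. Its change of 1.61 ± 0.32 (adjusted p = 0.0083) was 0.87 (adjusted p = 0.189) as the mean of its probe sets, and its call was lost in 2 fits without a SHI1 array (up to 0.126). CTSS, the cathepsin that cleaves the invariant chain, had 9.32 and 9.27 with GSK3484862, against 8.38 and 8.32 with DMSO (0.94 ± 0.09, adjusted p = 4.56e-06), above the other lines by 0.58 ± 0.09 (adjusted p = 0.00221).

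Lysosome genes had 4 of 43 up, 0 down and a median of 0.19, against 2.52% up over all genes. Beside CTSS these were the sialidase gene NEU1 (0.51 ± 0.10), the tetraspanin gene CD63 (0.36 ± 0.08) and the membrane receptor gene SCARB2 (0.31 ± 0.08). CD63 (adjusted p = 0.0773 to 0.114) and SCARB2 (0.113 to 0.219) lost their calls with any single SHI1 array left out, and NEU1 in 2 of those fits (up to 0.0928). SCARB2 also lost it under median centring (0.0553).

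In the lists of cell death and stress 1 or 2 genes rose, against 2.52% up over all genes. BCL2L11, the proapoptotic BIM, had 9.49 and 9.37 with GSK3484862, against 8.85 and 8.96 with DMSO (0.52 ± 0.08, adjusted p = 0.0011), while 1 of its 7 probe sets moved by -0.03. The death receptor gene TNFRSF10B rose by 0.34 ± 0.08 (adjusted p = 0.0255), the 1 of 34 p53 targets called and the second of 25 genes of the BCL2 and death receptor list, and lost its call in 3 fits without a SHI1 array (up to 0.274) and under centring or quantile normalization (0.0599 and 0.0693). TNFRSF10C, a decoy receptor gene and the p53 list member with the largest change, moved by 1.03 ± 0.45 (adjusted p = 0.305), but passed as the mean of its 3 probe sets (1.22, adjusted p = 0.00239) and without probe sets prone to cross-hybridise (1.95, adjusted p = 2.98e-04). CDKN1A, the p53 target p21, had 9.28 and 9.32 with GSK3484862, against 8.68 and 8.64 with DMSO, and did not pass (0.64 ± 0.26, adjusted p = 0.243) except in fits without the SKM1 arrays (0.003) or with array weights (0.011). In the list of the unfolded protein and ATF4 response 1 of 40 rose and 1 fell, against 2.52% up and 0.899% down over all genes. STC2, a secreted stanniocalcin, had 5.88 and 5.62 with GSK3484862, against 6.91 and 6.96 with DMSO (-1.18 ± 0.12, adjusted p = 1.52e-05), and EDEM1, of the degradation of misfolded glycoproteins, rose by 0.52 ± 0.08 (adjusted p = 0.00123).

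Among the metabolic genes ELOVL6, an elongase of long-chain fatty acids, had 6.44 and 5.39 with GSK3484862, against 4.44 and 4.36 with DMSO. It was the 1 of 26 lipid synthesis genes called, against 3.42% called over all genes. Its change was 1.51 ± 0.23 (adjusted p = 7.32e-04), above the other lines by the same 1.51 ± 0.24 (adjusted p = 0.00196). The mean of its 3 probe sets changed by 0.61 and did not pass (adjusted p = 0.274). In the hypoxia and glycolysis list 1 of 38 measured genes rose and 1 fell, against 2.52% up and 0.899% down over all genes. HK1, a hexokinase gene, rose by 0.44 ± 0.10 (adjusted p = 0.0172) and AK4 fell. HK1 lost its call in 3 fits without a SHI1 array (adjusted p up to 0.166).

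Against 2.52% up over all genes, the next lists had 2 rises each or none. Of 43 cytokine and receptor genes 2 rose, IL32 and IL17RA (0.58 ± 0.13, adjusted p = 0.0223), and of 35 matrix genes 2 rose, MMP9 and the collagen gene COL18A1 (0.88 ± 0.16, adjusted p = 0.00442). IL17RA lost its call with any single SHI1 array left out (adjusted p = 0.0716 to 0.177), and COL18A1 without GSK3484862 replicate 1 (0.0627). Among 22 tumour suppressors known for promoter methylation 2 rose, CTNNA1 of cell adhesion (0.40 ± 0.08, adjusted p = 0.00788) and the phosphatase gene PTPN6 (0.38 ± 0.08, adjusted p = 0.00832), and both lost their calls without GSK3484862 replicate 1 or DMSO replicate 2 (up to 0.126 and 0.127). Of 17 imprinted genes 0 passed. The median changes of the tumour suppressor and imprinted lists were -0.01 and 0.02.

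**Figure D5:**
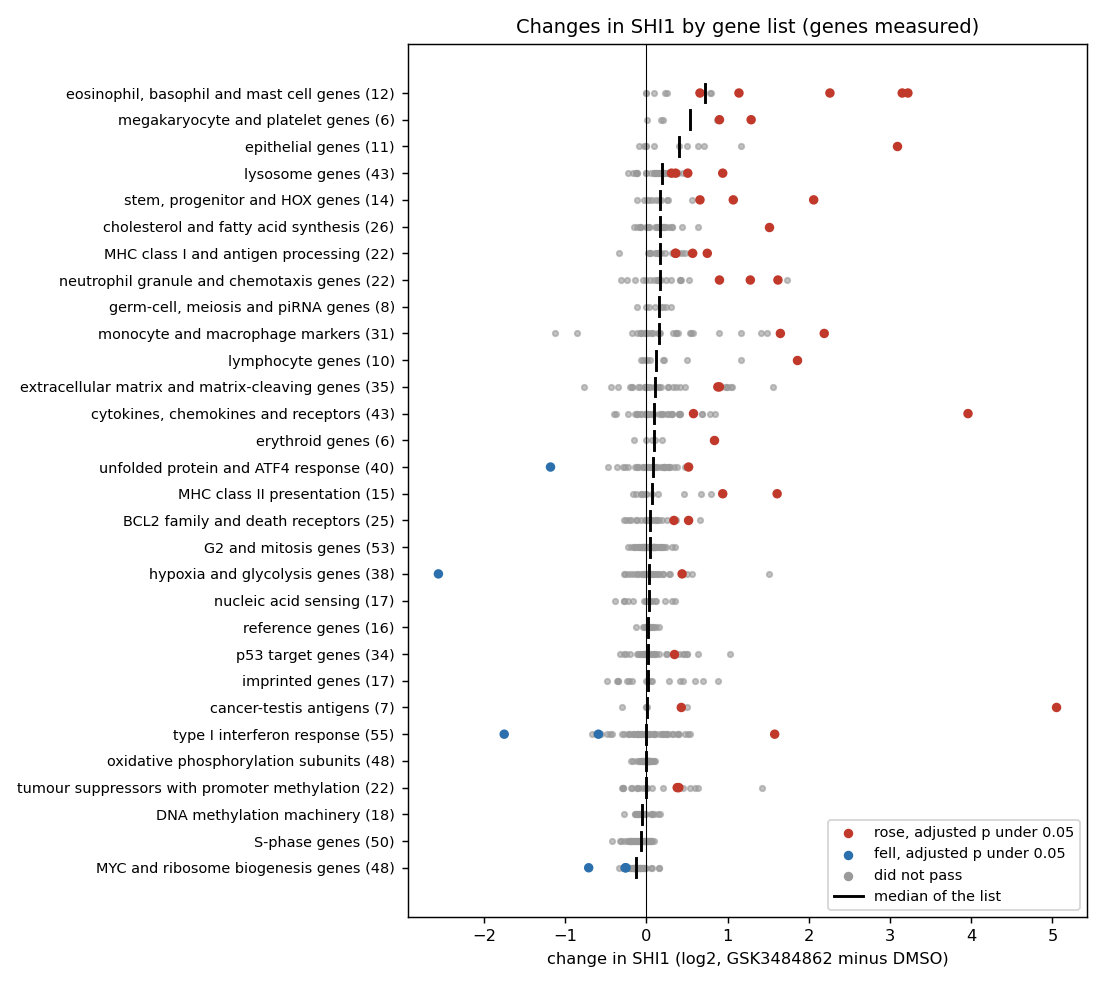
Change in SHI1 (log2, horizontal axis) of every measured gene in 30 gene lists, ordered by the median of the list (black bar), with the number measured in parentheses. Red genes rose and blue genes fell at an adjusted p under 0.05, and grey genes did not pass. The eosinophil and basophil list has the highest median, 0.72, and the MYC and ribosome biogenesis list the lowest, -0.13.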

How the data were processed

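The authors deposited 1 table of log2 values for 27306 probe sets on 28 arrays. How background, probe summary and normalization were handled is not given in the sources used here, and limma is named without version per the submitters' processing notes. Array medians of 8.33 to 8.51 and a shared floor of 2.131 led to use of the log2 values as deposited. Gene symbols came from the platform annotation, an older list. It paired 22580 probe sets with 1 symbol, 1098 with several and 3628 with none. The first kind covered 11676 genes, and 6051 had at least 2.

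The test was limma's (version 3.58.1, R 4.3.3, functions lmFit and eBayes), fitted once to all 14 groups of line and treatment, with 14 residual and 2.28 prior degrees of freedom, two-sided, and Benjamini-Hochberg adjustment over all genes. SHI1 alone leaves 2 residual degrees of freedom per gene, so the spread came from all lines. The contrasts were GSK3484862 minus DMSO in SHI1, and that change minus the mean of the other 6. Fits were tested on simulated data. The number of arrays limits the precision.

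The gene lists and the members described were chosen with earlier results of these data known. Named were the 16 genes that rose most and the 14 that fell most, if called and without overlap, the 6 largest differences from the other lines each way among genes called in both contrasts, DNMT1, DNMT3A, DNMT3B and UHRF1, and up to 4 called members of each of 30 lists, or the 2 with the largest change where fewer than 2 were called. Lists were described by counts and medians.

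The alternatives were quantile normalization, median centring, a filter that dropped genes whose group means were all under 8.43 (the table's median), averaging a gene's probe sets, no _x_at or _s_at probe sets, trend and robust eBayes, a block for the replicate number, array weights, SHI1 fitted alone, each other line or SHI1 array left out, a 2-fold limit and an adjusted p under 0.01. No scan dates or batches were given, so a batch effect could not be checked. Running numbers in the sample titles place the first duplicate of every group ahead of all second duplicates, and what they mark is not stated.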

Additional observations from a re-analysis of the deposited data

Results flagged for a closer look

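For 37 of the genes named in the text the change in SHI1 differed from the mean change of the other 6 lines by the limma test of that difference (adjusted p under 0.05), 23 higher and 14 lower. The values that follow are log2 differences, SHI1 minus the other lines.

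Among the largest rises the difference was 3.59 for LOXL1, 3.42 for CPXM1, 3.39 for SMPD3, 3.36 for MLPH, 3.34 for ZG16B and 2.99 for GAS2L1. It was 2.68 for IL32, 2.62 for SPINT2, 2.48 for KCNH2, 2.35 for COL21A1, 2.17 for KIF17, 2.05 for PRG3 and 1.45 for MAGEB2. Among the largest falls it was -2.74 for OAS1, -2.09 for PRKAR2B, -2.06 for TSPAN15, -1.82 for SH3RF1, -1.66 for PSMA8, -1.58 for SLC10A4, -1.49 for LONRF2, -1.45 for AK4, -1.31 for PPP1R13B and -1.21 for OBSL1. MEIOC differed by -1.69 and NFE4 by -2.32, and NFE4 rose in SHI1 all the same.

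Among the other genes of the lists the difference was 2.04 for IRF8, 1.71 for PRF1, 1.51 for ELOVL6, 1.32 for SPINK2 and 1.21 for ADGRG1. Smaller differences were those of CTSS (0.58), BCL2L11 (0.45), DDX43 (0.42), UHRF2 (0.30) and PUS7 (0.27), and of STC2 (-0.84) and HERC5 (-0.81). PUS7 fell in SHI1, and by less than in the other lines. Of the 37 differences, 24 kept their call with each single SHI1 array left out and 30 with each other line left out. UHRF2, PUS7, ADGRG1 and SLC10A4 kept it in 0 of the 4 fits without a SHI1 array, and COL21A1, PRG3, AK4, SH3RF1, OBSL1, PPP1R13B, DDX43, HERC5 and BCL2L11 in some of them.

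Probe sets with no gene symbol or several were not used above. Of 4726 such probe sets, 38 rose and 19 fell in SHI1 (1.21% called, adjusted over all probe sets). The largest change was that of a probe set with no symbol listed, with 8.41 and 7.89 with GSK3484862, against 4.79 and 4.07 with DMSO (3.72 ± 0.36, adjusted p = 1.49e-05).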

How the results depend on the processing

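The main counts in SHI1 were 294 genes up and 105 down, and those of the difference from the other lines 308 above and 197 below. In the same order, array weights gave 750, 381, 1097 and 565, and an adjusted p under 0.01 gave 144, 40, 90 and 80. An adjusted p under 0.05 together with a 2-fold limit gave 110, 31, 60 and 100. A filter on dim genes, which tested 7568 genes in SHI1, left 174 up and 47 down, and the 4 SHI1 arrays fitted alone gave 0 and 0. Without _x_at and _s_at probe sets, with 9052 genes, 167 were above and 128 below, and without the SKM1 arrays 565 and 302. With 1 SHI1 array left out, where the lone array is assumed to vary like the other groups, the counts were 140 to 227 up, 49 to 72 down, 96 to 155 above and 81 to 116 below. The cause was not tested for array weights or SKM1. The other settings kept the counts within 1.5 times of the main ones.

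The correlation of the deviations of same-numbered GSK3484862 and DMSO arrays was -0.028 in SHI1, 0.391 in SKNO1, 0.372 in SKM1 and 0.309 in NOMO1, and -0.097 to 0.086 in the other 3 lines. It was not above 0.1 in every line, and no label says that a number marks a shared batch or day, so pairing was not shown and the fit without the block was kept. With the replicate number as a block, 351 genes were up and 111 down in SHI1, and 357 above and 287 below the other lines. The block ended the calls of 8 of the 70 called genes named.

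Of those 70, 38 kept their call with each single SHI1 array left out, 24 of them among the 30 largest changes. Changes that did not pass turned sign when a SHI1 array was left out, from -0.075 to 0.039 for DNMT3B, -0.162 to 0.012 for UHRF1, -0.152 to 0.636 for TDRKH, -0.337 to 0.717 for TAL1, -0.000 to 2.313 for ST14, -0.416 to 2.168 for GRB10 and -0.202 to 1.595 for MEST. Calls were fewer at high levels, with 3.53% up among the 2919 dimmest genes and 1.16% among the 2919 brightest, where the single-array SD was 0.269 and 0.06.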

Other observations

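FLT3, the receptor tyrosine kinase of haematopoietic progenitors, lay near the floor on all SHI1 arrays, at 2.81 and 2.89 with GSK3484862 and 2.74 and 2.73 with DMSO, while the other lines changed by -1.03 on average from levels of 2.87 to 12.30. Its change in SHI1 was therefore above theirs by 1.16 ± 0.27 (limma, adjusted p = 0.02), a difference that was lost with any single SHI1 array left out (adjusted p = 0.0794 to 0.104). NEXN, an actin-binding protein gene, showed the same, at 2.84 and 2.79 with GSK3484862 and 2.79 and 2.84 with DMSO, against a mean change of -1.39 in the other lines. The number of other lines in which the gene fell was 4 for FLT3 and 3 for NEXN. These genes were chosen after their values were seen.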
